A study of Drosophila melanogaster with 3 samples.

Results

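Germ cells of the fruit fly Drosophila melanogaster with few CycB transcripts were compared between a female and a male embryonic library. They were chosen by measured values, namely at least 1000 UMIs (unique molecular identifiers, each a counted RNA molecule), at least 500 genes, and UMIs for at least 3 of 7 germ genes (vas, nos, pgc, zpg, aub, CG17650 and CG14545). They also had to hold under 5 CycB UMIs per 10000 UMIs and no pgc UMI. The rule found 499 of 10386 female cells and 1765 of 6756 male cells, in all 2264 of the 20952 cells of the series. Among cells past the depth filter they made up 4.86% of the female library (exact binomial interval 4.45 to 5.29%) and 26.4% of the male library (25.3 to 27.5%). Among cells that met the germ-gene rule, with any CycB and pgc level, they were 39.4% of 1268 female and 37.6% of 4692 male cells.

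Both libraries came from embryos aged 5-8h of the genotype Sxl-GFP, vas-GFP, sorted by flow cytometry for GFP, and both were made with the 3' v3 droplet kit of 10x Genomics. Germ cells are the cells marked by vas-GFP, and Sxl-GFP was present in both groups. A further library of unsexed germ cells, collected at 0-8h, was used here only to sort genes by how their level differs with stage. There was 1 library per sex. No test was therefore run, differences between libraries have no replicate check, and all intervals are at 95% and cover counting error only.

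Primordial germ cells of the fly inherit maternal RNAs and stay transcriptionally silent at first, held there by the product of pgc, while CycB is among the maternal RNAs they carry. Females have a pair of X chromosomes and males a single X with a Y. In somatic cells of males the MSL complex, which contains the roX RNAs, raises transcription of the X, and the switch gene Sxl keeps this complex off in females. In germ cells the receptor dome, the kinase hop and the transcription factor Stat92E form the JAK-STAT pathway, which signals from somatic gonad to male germ cells, while Sxl and ovo act in female germ cells.

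The label was first checked against its markers. The gap-junction gene zpg stood at 315 CPM (UMIs per 1000000 summed UMIs) in females (Poisson interval 304 to 325) against 429 CPM in males (418 to 439). CG14545 stood at 356 and 481 CPM, and CG17650 at 197 and 240 CPM. All 3 were seen in 425 of the 499 female cells and 1353 of the 1765 male cells. These genes served in the rule and their values are a description. They were at 0 UMIs in the comparison cells, which were required to lack them. Comparison cells held UMIs for at most 1 of the 7 germ genes, and the female library had 8434 of them and the male library 1419.

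The cells near the limits of the rule were numerous. A CycB level of 4 to 5 per 10000, just inside, was found in 69 female and 249 male cells, and one of 5 to 6 per 10000, just outside, in 45 and 178. Exactly 3 germ genes were seen in 59 female and 473 male cells that were kept, whereas 227 and 226 cells otherwise eligible had exactly 2. A single pgc UMI left out 55 female and 129 male cells. Libraries differed in depth, with a median of 20199 UMIs per female and 8163 UMIs per male cell and sums of 10850756 and 14934678 UMIs. The libraries had 17 barcodes in common, 0 of them in chosen cells of both.

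Some of the chosen cells of the female library also held somatic RNA. A list of 28 markers of neural, mesodermal, epidermal, gonadal and other somatic cells had a median of 6.81 UMIs per 10000 in female and 4.83 in male cells, against 31.5 and 25.0 in the comparison cells. One marker, how, gave 258 of the 1189 CPM of the list in females and 252 of 581 CPM in males, where it stood at 201 CPM in comparison cells. Without how, a choice made after the data were seen, the medians were 4.09 and 2.30 per 10000, and 47 female and 17 male cells held at least 15. With the whole list, at least 15 such UMIs per 10000 were found in 60 female cells (12.0%) and 35 male cells (1.98%). Of these 60 female cells, 50 had fewer than 10 UMIs of the 7 germ genes per 10000. The germ-gene rate had medians of 11.1 per 10000 in female and 13.6 per 10000 in male cells. Requiring at least 10 per 10000 left 305 female and 1342 male cells, called germ-rich cells below, and values for these stand beside the counts and most of the named genes. By a fixed rate of the highest Scrublet scores, 74 female and 111 male cells would be removed as likely doublets. They were kept for the main values.

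**Figure D1:**
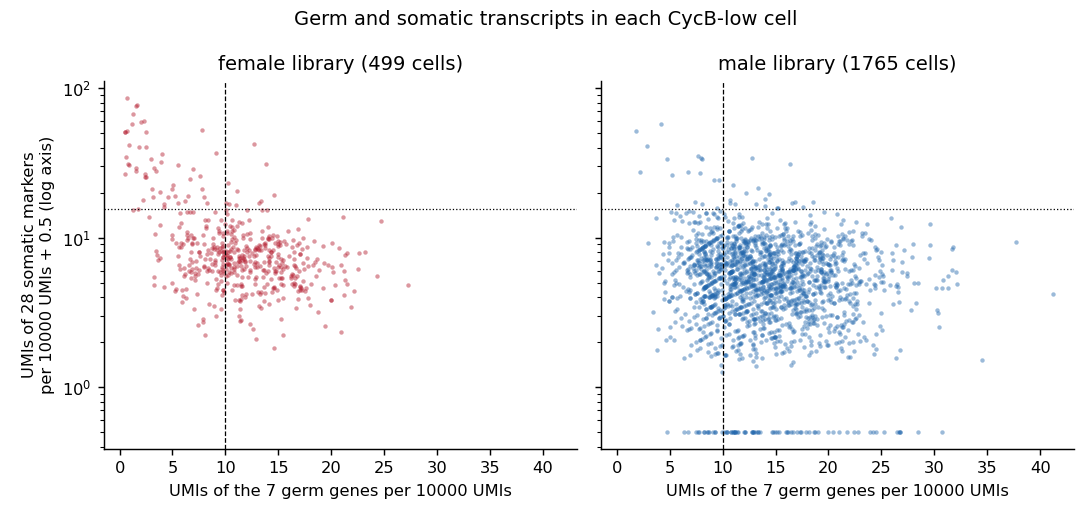
UMIs of the 28 somatic markers against UMIs of the 7 germ genes, both per 10000 UMIs, in each of the 499 female and 1765 male cells. The vertical axis is logarithmic with 0.5 added, the dashed line marks 10 germ UMIs and the dotted line 15 somatic UMIs. The 60 female cells above the dotted line lie mostly to the left of the dashed line.

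The sex labels were checked with the Y chromosome and the X share before genes were compared. The 113 annotated Y-linked features held 3 UMIs in the female cells (0.277 CPM) and 263 in the male cells (17.6 CPM). Of the male cells, 75 (4.25%) drew at least 15% of their UMIs from the X, as did 482 of the 499 female cells. Those 75 cells held 3 Y-linked UMIs in 621455 UMIs, or 4.83 CPM (Poisson interval 0.996 to 14.1), whereas the 1650 male cells under 14% held 18.1 CPM (16.0 to 20.5). The X share chose these cells, so the Y-linked level is the only separate measure, and whether they are cells of the other sex was not tested. In the female library 4 cells drew under 14% of UMIs from the X. Mitochondrial features held 0 UMIs in both groups.

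The share of UMIs from the X differed between the libraries, with some overlap between cells. In female cells the X gave a median of 16.7% of a cell's UMIs, with 5% of cells under 15.4% and 5% over 18.2%. In male cells the median was 12.8%, with 5% of cells under 11.6% and 5% over 14.4%. The median differed by 3.91 percentage points, and 99.8% of female cells lay above the male median. Of the male cells, 3.68% lay at or over the lower female limit of 15.4%. Of the female cells, 1.60% lay at or under the upper male limit of 14.4%. Thinning every cell to 2000 UMIs gave medians of 16.8 and 12.8%. In germ-rich cells the medians were 16.9 and 12.8%. The distributions of the libraries overlapped more in cells with higher CycB, where 683 female cells had a median of 16.5% and 2716 male cells one of 13.3%. Comparison cells lay closest, at 15.3 and 13.9% after thinning to 2000 UMIs.

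**Figure D2:**
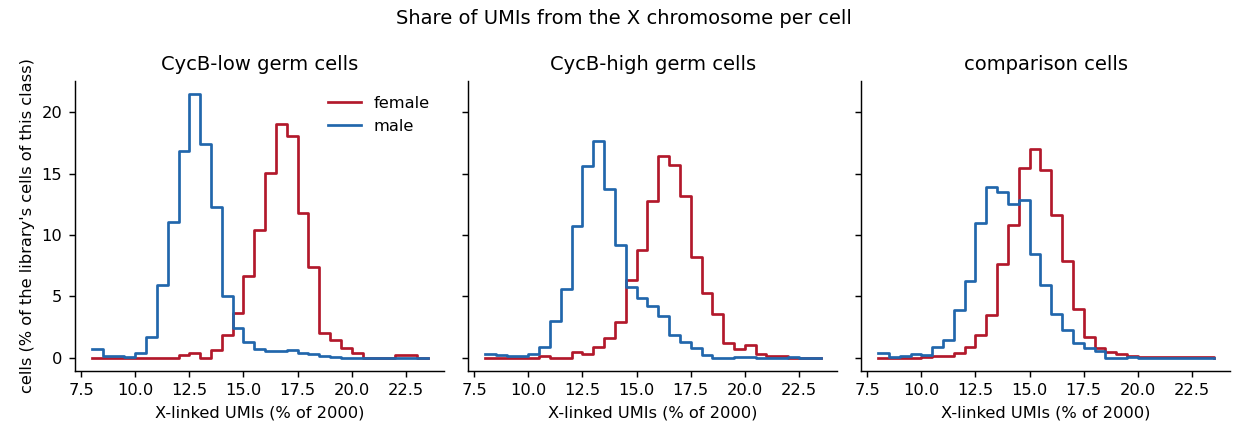
Share of UMIs from the X chromosome per cell, each cell thinned to 2000 UMIs, for the female and male libraries in 3 classes of cells. Lines give the percentage of a library's cells in bins of 0.5 percentage points, with values outside the axis placed in the end bins. The medians are 16.8 and 12.8% in CycB-low germ cells and lie closer in the comparison cells.

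Over single genes, X-linked transcripts were higher in female cells as a whole chromosome and autosomal transcripts were slightly lower. The comparison took genes that reached 20 CPM in either group and 100 UMIs over both, without the 8 genes of the rule. The median log2 ratio of female to male CPM, with 1 CPM added, was 0.58 over 916 X-linked genes and -0.14 over 4204 genes of arms 2L, 2R, 3L and 3R. The difference was 0.72, and 0.75 in germ-rich cells. The log2 ratio exceeded 0 in 97.2% of X-linked but 26.3% of autosomal genes. Exact conditional intervals of the ratio lay wholly above 1 for 858 X-linked genes and wholly below 1 for 17. The arms were alike, with medians of -0.14 on 2L, -0.13 on 2R, -0.14 on 3L and -0.13 on 3R. The fourth chromosome, which is small and has its own binding protein Pof, had a median of -0.08 over 47 genes. Leaving out the male cells at or above and the female cells below a 15% X share, a limit that uses the X itself, gave a difference of 0.77.

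The excess was spread along the chromosome and over its genes. In 10 stretches of the X of equal length, the difference from the autosomal median ranged from 0.66 to 0.77. Of the 916 X-linked genes, 343 had a log2 ratio of 0.5 to 0.75, 236 one of 0.25 to 0.5, and 79 one above 1. Because 1 CPM is added, a log2 ratio of 1 needs slightly more than a doubling of CPM. A plain CPM ratio of at least 2 was reached by 91 X-linked genes. The same difference was 0.56 in the germ cells with higher CycB and 0.19 in the comparison cells.

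**Figure D3:**
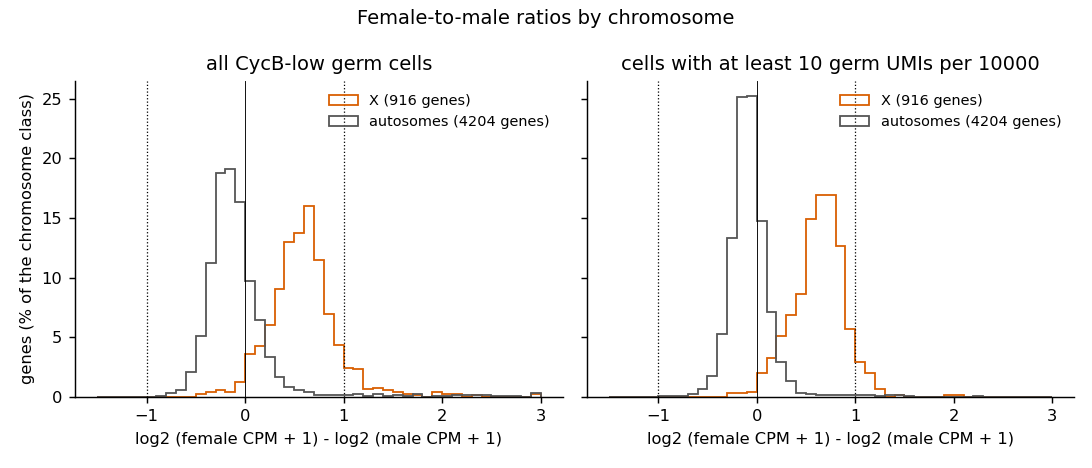
Log2 ratio of female to male CPM, with 1 CPM added, for X-linked and autosomal genes in all CycB-low germ cells and in the germ-rich cells. Lines give the percentage of 916 X-linked and 4204 autosomal genes in bins of 0.1, with values outside the axis placed in the end bins. Dotted lines mark a 2-fold difference after 1 CPM is added. The X-linked curve is centred near 0.6 in both panels and the upper autosomal tail is smaller in the germ-rich cells.

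The X minus autosome difference varied with the kind of gene. Genes were sorted by the unsexed library, comparing 749 of its cells that passed the same rule with 900 of its germ cells that held at least 10 pgc UMIs per 10000. Among genes at least 4-fold higher in the later cells, called late-higher, the X minus autosome difference between female and male was 0.91 over 35 X-linked and 116 autosomal genes, and 0.91 in germ-rich cells. Its parts were medians of 0.57 on the X and -0.34 on the autosomes. The difference was 0.70 over 728 X-linked genes that differed less than 4-fold between the stages, with medians of 0.56 and -0.15. It was 0.26 over 14 X-linked genes at least 4-fold lower in the later cells, called early-higher, with medians of 0.47 and 0.21. In all cells the X-linked medians of the 3 classes lay closer together than the autosomal ones. In germ-rich cells the X-linked medians were 0.75, 0.63 and 0.53 and the autosomal ones -0.17, -0.09 and -0.06. The value for early-higher genes was 0.59 in germ-rich cells, over 10 X-linked genes, and 0.67 with a 2-fold limit. By level, the difference was 0.76 for genes at a mean of 20 to 50 CPM, 0.72 at 50 to 100 CPM, 0.65 at 100 to 300 CPM and 0.35 for 70 X-linked genes above 300 CPM. Here the autosomal medians lay between -0.17 and -0.11, and the X-linked medians were 0.64, 0.59, 0.49 and 0.24. Germ-rich cells gave 0.79, 0.77, 0.63 and 0.37. These classes share the same libraries, and the differences between them were not tested.

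**Figure D4:**
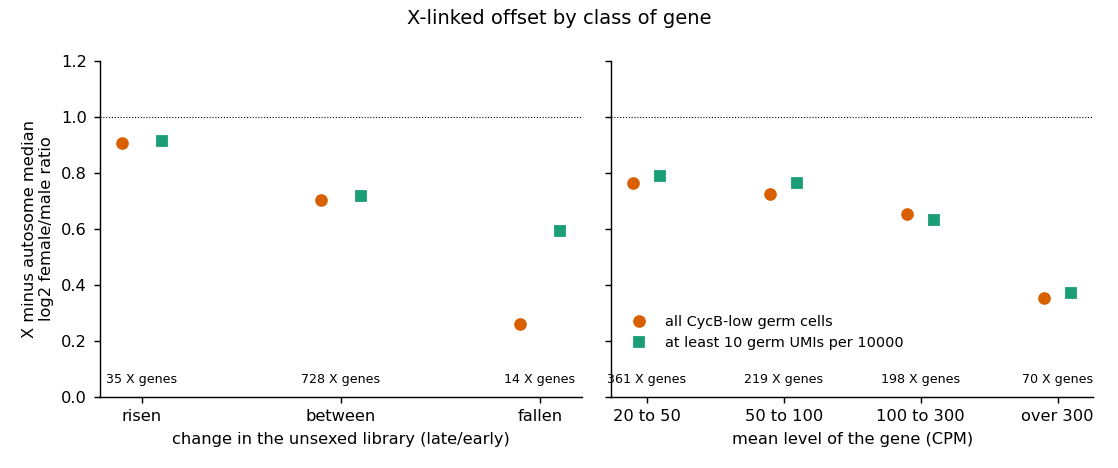
X minus autosome difference of the median log2 female to male ratio, for genes by their change in the unsexed library (risen, late-higher; fallen, early-higher) and by their mean level. Circles are all CycB-low germ cells and squares the germ-rich cells, and the numbers of X-linked genes are those of all cells. The dotted line marks a doubling, with 1 CPM added to each level. The value is 0.91 for late-higher genes, 0.26 for early-higher genes in all cells, and 0.35 for genes above 300 CPM.

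Among X-linked germ transcripts, 5 of the most abundant had ratios from 1.01 to 1.38. Genes with more CPM in these cells than in the comparison cells of both libraries are called germ-enriched. The prolyl isomerase gene Cyp1 stood at 3157 CPM in females against 3109 CPM in males, a ratio of 1.01 (1.001 to 1.03). Its ratio was 1.13 in germ-rich cells. The replacement histone gene His3.3B had a ratio of 1.05 (1.03 to 1.08) and the ribosomal protein gene RpS19a one of 1.18 (1.16 to 1.20). In germ-rich cells these were 1.07 and 1.20. The dynein light chain gene ctp reached 1.29 (1.27 to 1.32) and Trf2, which encodes a relative of the TATA-binding protein, 1.38 (1.35 to 1.41), and 1.35 and 1.499 in germ-rich cells. The X-linked germ-enriched genes with the lowest ratios were Idgf4, at 0.722 (0.675 to 0.773), CG3457 at 0.753 and CG12112 at 0.766. Their ratios in germ-rich cells were 0.831, 0.856 and 0.881. Cyp1, ctp and Trf2 overlap other annotated genes or transposons, and the strand setting of the counting is not given in the sources used here, so counts of such genes are uncertain.

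The late-higher genes of the unsexed library were followed one by one on the X and on the autosomes. karr (FBgn0040784; X, 20110110 to 20110575, minus strand, annotation build BDGP6.54) had 1276 female and 1045 male UMIs. It stood at 118 CPM in females (111 to 124) against 70.0 CPM in males (65.8 to 74.4), a ratio of 1.68 (1.55 to 1.83). Its ratio was 2.05 (1.86 to 2.26) in germ-rich cells, and its level in comparison cells was 0.384 and 2.28 CPM. TfIIA-S-2, a copy of the gene for the small subunit of TFIIA, stood at 37.7 and 22.9 CPM, with a ratio of 1.65 and of 2.08 in germ-rich cells (1.78 to 2.45). CG3176 had a ratio of 1.49, HP1D3csd, a chromo shadow domain gene, 1.31, and CG43843 1.31. In germ-rich cells these 3 ratios were 1.68, 1.60 and 1.60. The neural RNA-binding gene elav, the remaining one of the 5 highest by male level, is itself a somatic marker, and its ratio was 2.95 in all cells and 1.90 in germ-rich cells.

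The 5 autosomal late-higher genes of highest male level had ratios from 0.696 to 0.964. P32 stood at 340 CPM in females against 459 CPM in males, and IscU, the scaffold gene of iron-sulfur cluster assembly, at 290 and 417 CPM. In germ-rich cells the ratios were 0.864 for P32, 0.769 for IscU, 0.811 for the RNA-binding gene La, 0.865 for CG32971 and 0.996 for CG32486. Of a list of 9 late germline copies, many of them ribosomal protein paralogs, 8 passed the filter and 0 differed 2-fold in all cells. The 2 X-linked members, karr and TfIIA-S-2, had a median log2 ratio of 0.72 and the 6 autosomal members one of -0.38. Among the latter, RpS10a had a ratio of 0.696, RpS19b 0.658 and RpL22-like 0.725, and 0.835, 0.807 and 0.864 in germ-rich cells. In all and in germ-rich cells, RpL37b had ratios of 0.811 and 0.962, RpL24-like 0.850 and 0.882, and RpS5b, at 2233 and 2383 CPM, 0.937 and 0.930. Paralogs can share reads, so single values in this list are uncertain.

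Calls at 2-fold were mostly female-higher, and their number differed with the choice and the depth of the cells. Of 5211 genes compared, 212 (4.07%) were at least 2-fold higher in female cells and 5 (0.096%) in male cells. The 212 comprised 91 X-linked and 117 autosomal genes, and 205 of them had more CPM in the comparison cells of at least 1 library. In germ-rich cells 75 of 5105 genes (1.47%) were female-higher and 4 (0.0784%) male-higher. Of those 75, 61 were X-linked and 11 lay on autosomes. Only 45 of the 75 were among the 212, and the rest were called in germ-rich cells but not in all cells. Regardless of the filter, 85 of the 212 kept a ratio of at least 2 in germ-rich cells, 41 X-linked and 42 autosomal. Some calls were thus lost only because the gene fell below the filter. An example is scrt, at 16.9 and 5.14 CPM in germ-rich cells, a ratio of 3.28. Dropping the cells with at least 15 somatic UMIs per 10000 instead, a choice made after the data were seen, left 55 X-linked and 17 autosomal female-higher genes. Thinning to 5000 UMIs per cell, with no somatic limit, left 364 female and 1399 male cells. There 91 X-linked and 15 autosomal genes were female-higher. The parts that somatic RNA and depth have in the X-linked and autosomal calls were not tested.

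The highest ratios belonged to somatic genes read from few cells. CG12011 (FBgn0035257) was counted 2084 times in female and 19 times in male cells, and 96.2% of the female UMIs came from 10 cells. Its ratio was 151 (96.4 to 251) in all cells and 7.80 (4.22 to 15.54) in germ-rich cells. CG5399 had all of its 226 female UMIs in 10 cells, and its ratio of 44.4 became 0.712 in germ-rich cells. The T-box gene bi had a ratio of 27.9 and nw one of 15.1, and in germ-rich cells these were 8.45 and 4.37. NimC4, a receptor of phagocytes for dying cells, stood at 44.1 CPM in females (40.2 to 48.2) against 2.48 CPM in males (1.74 to 3.42), and 75.7% of its female UMIs came from 10 cells. Its ratio was 17.8 in all cells and 20.1 in germ-rich cells, and comparison cells held 426 CPM in females against 182 CPM in males. NimC4 overlaps nAChRalpha5 on the same strand. Of the 28 somatic markers, 11 passed the filter and 8 of these were 2-fold higher in female cells, with a median log2 ratio of 1.66 that was 0.82 in germ-rich cells. Over all genes compared 4.07% were 2-fold female-higher, the share to set beside the counts of every list. The neural gene scrt was at 119 CPM in females against 11.1 CPM in males, and the epidermal gene grh at 46.7 and 5.16 CPM. The gonadal marker tj held 0 female and 6 male UMIs.

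Germ-enriched female-higher genes were few and X-linked. All 7 of those among the 212 lay on the X. Each stood under 20 CPM in males and passed the filter through the female cells alone, so a difference was built into their selection and their number is no support. shtd (FBgn0004391; X, 15455544 to 15462441, minus strand), which encodes a subunit of the anaphase-promoting complex, had 234 female and 136 male UMIs. It stood at 21.6 CPM in females (18.9 to 24.5) against 9.11 CPM in males (7.64 to 10.8), a ratio of 2.37 (1.91 to 2.947) that was 2.49 in germ-rich cells. APC4, for another subunit of that complex, had a ratio of 2.02 (1.67 to 2.44), and 1.91 in germ-rich cells. The remaining 5 were c11.1 at 2.12 (1.72 to 2.63), Appl, the fly relative of the amyloid precursor gene, at 2.08, CG1582 at 2.08, lncRNA:CR43264 at 2.04 and CG12991 at 2.01. In germ-rich cells these 5 stood at 2.29, 2.20, 2.27, 2.38 and 1.959. CG3679 stood at 2.00 (1.66 to 2.41), just under the limit. The lower bounds of all 8 intervals lay below 2, so a true ratio under 2 is within counting error. Among the female-higher genes of the germ-rich cells, 29 were germ-enriched and 28 of these X-linked. The remaining gene, SteXh:CG42398, lies on an unplaced scaffold in the annotation, so it was not counted as X-linked here. It belongs to the Stellate repeats and had a ratio of 2.19. The germ-enriched genes compared in germ-rich cells were 542 X-linked and 2914 autosomal ones. Some of the 29, among them fs(1)Yb at 9.04 CPM and Vinc at 10.3 CPM in males, again passed the filter through the female cells alone. Their number is therefore no support either. In the annotation shtd overlaps CG11655 and c11.1 overlaps Aladin on the opposite strand.

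The 11 autosomal female-higher genes of the germ-rich cells, named here after their values were seen, were NimC4, CG4440, Obp99a, tna, Tet, lin-28, nkd, E(spl)mgamma-HLH, Ocho, HmgZ and Cys. Each had more CPM in the comparison cells than in the germ cells. Tet, for example, stood at 55.4 and 19.1 CPM in germ-rich cells of females and males, while the comparison cells held 1435 and 1512 CPM. With both the somatic and the germ limit applied, 65 X-linked and 6 autosomal genes were female-higher.

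All 5 male-higher genes were germ-enriched and 0 of them X-linked. Each stood under 20 CPM in females and passed the filter through the male cells alone. Su(Ste):CR42418, a member of the repeats that silence Stellate and are known from the Y chromosome, was counted 2 times in female cells and 520 times in male cells. That is 0.184 CPM (0.022 to 0.666) against 34.8 CPM (31.9 to 37.9). The ribosomal RNA precursor pre-rRNA:CR45847 stood at 3.32 and 192 CPM, while pre-rRNA:CR45845 stood at 235.5 and 28.6 CPM in the opposite direction. Copies of these repeats are nearly identical, so counts of any single copy are uncertain. CG30438 (FBgn0050438; 2R, 5496674 to 5549543) stood at 12.8 CPM in females against 32.9 CPM in males, a ratio of 0.389 (0.320 to 0.470). CG34031 (FBgn0054031; 3L, 23174446 to 23185750) stood at 18.4 CPM (16.0 to 21.2) and 41.5 CPM (38.3 to 44.9), a ratio of 0.444 (0.377 to 0.522). Their ratios were 0.486 and 0.495 in germ-rich cells, both still past the limit, while CG40006 went from 0.485 to 0.515. All 3 overlap annotated transposons. The next lowest germ-enriched genes were Schip1 at 0.543, cona, a component of the synaptonemal complex, at 0.544, and STUB1, a ubiquitin ligase gene, at 0.550. In germ-rich cells these stood at 0.672, 0.682 and 0.687.

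The germline identity list had ratios on both sides of 1. Of 24 listed genes 22 passed the filter, 1 was 2-fold female-higher and 0 male-higher, and the intervals of 7 lay above and of 13 below 1. Over all 5211 genes compared, 1456 intervals lay above and 2170 below, and 4.07% of the genes were 2-fold female-higher. The median log2 ratio was -0.14 and became 0.00 in germ-rich cells. The gene for the microtubule regulator stathmin, stai, had 12164 female and 24567 male UMIs, at 1121 CPM (1101 to 1141) and 1645 CPM (1624 to 1666). Its ratio of 0.681 (0.667 to 0.697) became 0.811 in germ-rich cells. The piRNA genes piwi, AGO3, krimp, vret and shu had ratios of 0.801, 0.782, 0.776, 0.702 and 0.773, and 0.959, 0.924, 0.916, 0.827 and 0.931 in germ-rich cells. Of further listed genes, tej, qin, mael and zuc stood at 0.872, 0.9195, 0.960 and 0.989 in germ-rich cells. There tud, armi and spn-E reached 1.005, 1.002 and 1.08. The translational repressor bru1 went from 0.914 to 1.06 and bgcn, a partner of bam, from 0.914 to 1.06.

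On the X, 4 members of that list passed the filter and had ratios above 1, while CG15930, below the filter, held 163 female and 263 male UMIs, a ratio of 0.853 (0.697 to 1.04) that was 1.097 in germ-rich cells. Phf7, a chromatin reader that promotes male fate in the fly germline, stood at 42.3 CPM in females (38.5 to 46.4) against 27.8 CPM in males (25.2 to 30.6), a ratio of 1.52 (1.33 to 1.74). Its ratio was 1.79 in germ-rich cells. The transcription factor gene ovo stood at 407 and 360 CPM, a ratio of 1.13 (1.09 to 1.18), and 1.25 in germ-rich cells. The oogenesis gene otu, a target of ovo, had ratios of 1.24 and 1.56. The receptor gene Tre1, needed for germ cell migration, went from 1.42 to 1.14. Among the autosomal members, the mitotic phosphatase gene stg was at 105 CPM in females against 45.3 CPM in males, a ratio of 2.31 that was 1.52 in germ-rich cells.

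**Figure D5:**
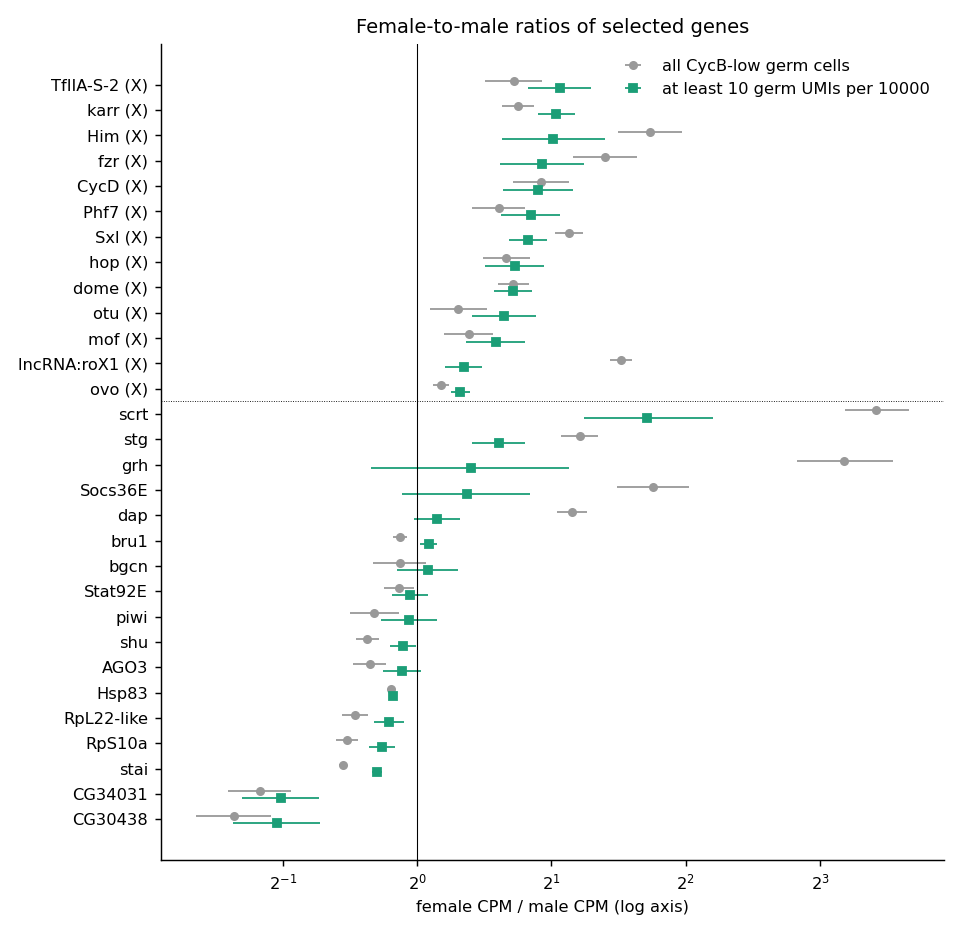
Ratio of female to male CPM for 30 genes, X-linked genes above the dotted line and others below, in all CycB-low germ cells (circles) and in the germ-rich cells (squares), with exact 95% conditional intervals on a logarithmic axis. The 30 genes are a selection from the named and listed genes. It leaves out the X-linked Idgf4, CG3457 and CG12112, whose ratios lie below 1 in both sets of cells. All 13 X-linked genes shown lie above 1 in both, and scrt, grh, Socs36E, dap and stg lie closer to 1 in the germ-rich cells.

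Among 13 sex-determination genes, 11 passed the filter and Sxl alone was 2-fold female-higher. Sxl stood at 178 CPM in females (171 to 186) against 81.6 CPM in males (77.1 to 86.3), a ratio of 2.19 (2.03 to 2.35). The ratio was 1.77 (1.61 to 1.95) in germ-rich cells, and the comparison cells held 415 and 270 CPM. The embryos carried Sxl-GFP, and how its transcript was counted was not examined here. The splicing genes tra and tra2 had ratios of 1.16 and 1.13, and 1.03 and 0.973 in germ-rich cells. The splicing factor gene snf, on the X, had a ratio of 1.08 (1.03 to 1.14), and Unr, a translation regulator of msl-2, one of 1.09 (1.06 to 1.12). In germ-rich cells snf stood at 1.14. Over the list, the intervals of 5 genes lay above and of 2 below 1. The latter were ix, at 0.779 (0.692 to 0.876), and her, at 0.712 (0.607 to 0.834). In germ-rich cells ix stood at 0.796 and her at 0.6965. Only 4 UMIs of dsx were counted in females and 21 in males, with 4 and 10 of fru.

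The X signal list holds genes that set Sxl on or off in somatic cells. Of 9 genes 5 passed the filter, all autosomal. Of these, dpn alone was 2-fold female-higher, at 20.6 and 5.62 CPM. Its ratio of 3.67 became 1.55 in germ-rich cells (0.95 to 2.52). The repressor genes emc and gro had ratios of 1.51 (1.42 to 1.60) and 1.20 (1.14 to 1.265), and the activator da 1.18 (1.09 to 1.275), with 1.04, 1.13 and 0.999 in germ-rich cells. The remaining gene past the filter, her, was lower in females, with a ratio of 0.712 (0.607 to 0.834), and 0.6965 in germ-rich cells. The X-linked sisA, upd1, sc and run were below the filter. sisA held 41 female and 27 male UMIs, a ratio of 2.09, and 1.26 in germ-rich cells, and upd1 held 10 and 10. sc held 64 and 12 UMIs, a ratio of 7.34 (3.93 to 14.9), and run 183 and 52, a ratio of 4.84 (3.54 to 6.725). In germ-rich cells these were 6.23 (1.19 to 61.4) and 3.62 (2.27 to 5.915). Both sc and run had more CPM in the comparison cells of each library.

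The dosage compensation list held genes on both sides of 1. Of 10 genes 8 passed the filter. The ratio was 0.988 (0.859 to 1.13) for msl-1, 0.976 (0.863 to 1.103) for the helicase gene mle and 0.987 (0.898 to 1.09) for Clamp, which recruits the complex. It was 0.738 (0.616 to 0.883) for msl-3 and 0.929 (0.896 to 0.964) for the kinase gene JIL-1. In germ-rich cells the 5 ratios were 0.942, 0.963, 0.966, 0.772 and 0.971. The X-linked acetyltransferase gene mof had a ratio of 1.31 (1.15 to 1.48), and 1.499 in germ-rich cells. The male-specific subunit gene msl-2 held 74 female and 86 male UMIs, a ratio of 1.18 (0.856 to 1.64), so no difference was detectable at this depth. lncRNA:roX1 stood at 336 CPM in females against 118 CPM in males, but in germ-rich cells the ratio went from 2.86 to 1.27, and 32.6% of the female UMIs came from 10 cells. Comparison cells held 1016 CPM of it in female and 1657 CPM in male cells. lncRNA:roX2 stood at 7.93 and 8.91 CPM, a ratio of 0.890 (0.671 to 1.18), against 24.3 and 80.0 CPM in comparison cells.

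Of 13 genes of the JAK-STAT list 7 passed the filter, among them the X-linked dome and hop. The receptor gene dome, on the X, stood at 119 CPM in females (113 to 126) against 72.7 CPM in males (68.4 to 77.1), a ratio of 1.64 in all cells and in germ-rich cells alike. The kinase gene hop, also on the X, had ratios of 1.58 (1.40 to 1.79) and 1.65. The autosomal Stat92E had ratios of 0.910 (0.843 to 0.982) and 0.965, Su(var)2-10 0.911 and 0.928, and Ptp61F 0.912 and 0.971. The transcription factor gene chinmo, also autosomal, had ratios of 1.24 (1.098 to 1.41) in all and 0.952 in germ-rich cells. The feedback inhibitor gene Socs36E, a target of the pathway, stood at 37.3 and 11.1 CPM, a ratio of 3.38 (2.81 to 4.07). In germ-rich cells it was 1.29 (0.926 to 1.79), and the comparison cells held 227 and 163 CPM. The ligand genes upd1, upd2 and upd3 held 10, 3 and 0 female UMIs and 10, 3 and 4 male UMIs.

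Of 13 cell cycle genes 12 passed the filter, and 3 were 2-fold female-higher, where 4.07% of all genes compared were, and 0 male-higher. Their median log2 ratio was 0.34 and 0.05 in germ-rich cells, against -0.08 and -0.05 over all genes. The cyclin-dependent kinase inhibitor gene dap went from a ratio of 2.22 to 1.11, CycA from 1.53 to 1.11 and CycE from 1.29 to 0.899. Of the X-linked members, CycD stood at 1.89 and 1.87 and fzr, an activator gene of the anaphase-promoting complex, at 2.63 and 1.91. Of 8 maternal germ plasm genes 7 passed the filter and 0 differed 2-fold. Hsp83 stood at 3146 CPM in females against 3602 CPM in males, a ratio of 0.873 (0.862 to 0.885), and osk had a ratio of 0.809 (0.693 to 0.943). In germ-rich cells these were 0.882 and 0.897.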

How the data were processed

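The deposited matrices are the authors' UMI counts for each gene in each cell, made with Cell Ranger and genome build BDGP6, per the submitters' processing notes. The 10x software was version 3.1.0 for the sexed and 3.0.1 for the unsexed matrix, per the file headers. Strand handling is not given in the sources used here. Of 17753 features, 17626 were placed on a chromosome with the BDGP6.54 annotation. Totals were 109431813 female, 47345241 male and 58378567 unsexed UMIs.

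UMIs were summed over the chosen cells of each library and scaled to CPM, with Python 3.11.15, pandas 2.3.3 and scipy 1.17.1. Intervals are exact Poisson for UMI sums, exact binomial for shares and exact conditional for ratios. Genes needed at least 20 CPM in 1 library and 100 UMIs over both, and a call needed a 2-fold ratio. Log2 ratios use a pseudocount of 1. Scrublet, run in scanpy 1.11.5, scored doublets, and its automatic threshold marked 389 female cells (3.79%) and 5 male cells (0.0748%), too few in the male library for a working caller. The highest scores, at 0.8% per 1000 cells, were removed as an alternative only. edgeR 4.0.16 and DESeq2 1.42.0 in R 4.3.3 gave alternative scale factors and no tests. The calculation was tested on simulated counts. Dense tables of counts, deposited beside the matrices, served as an alternative. They hold more UMIs for the same barcodes, a median of 1.19 times as many in the female and 2.52 times in the male library.

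The members and gene lists were chosen with earlier results of these data known. Named genes are the 5 highest and 5 lowest ratios, the 8 highest and 8 lowest germ-enriched ones, the 5 X-linked germ-enriched genes of highest male level and the 3 of lowest ratio, the 5 X-linked and 5 autosomal late-higher genes of highest male level, and listed genes. Exceptions are marked. No sequence reference was used here.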

Additional observations from a re-analysis of the deposited data

Results flagged for a closer look

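Within each library, the CycB-low cells were also set against the germ cells with higher CycB. The X minus autosome difference of the median log2 change was 0.078 in the female library, over 942 X-linked and 4184 autosomal genes, and -0.077 in the male library, over 792 and 4184 genes. It was picked out because the libraries go in opposite directions. The difference was not tested, and each sex has 1 library.

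The dense male table holds barcodes that the matrix lacks. Of 416 such barcodes past the depth filter, 8 passed the rule for the cells described here (1.92%), above the 0.721% that a count of 0 would allow, and they entered no main value. Of 573 such barcodes of the female library 0 did, a count that allows at most 0.524%.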

How the results depend on the processing

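With 1 library per sex, limits come from cell choice, depth and thresholds. The 212 female-higher genes became 640 at 1.5-fold, 93 with at least 50 CPM, 390 with at least 5 CPM or no CPM filter, 128 with at least 4 germ genes, 75 in germ-rich cells, 112 without likely doublets, 108 after thinning to 5000 UMIs and 7 without genes that have more CPM in comparison cells. With limits added after the data were seen they became 74 without somatic-rich cells and 73 with the germ limit as well. The 5 male-higher genes became 71 at 1.5-fold, 1 with at least 50 CPM, 37 with at least 5 CPM or no CPM filter, and 8 both with CycB under 2 per 10000 and after thinning. Scaling by TMM, DESeq2 size factors or autosomal UMIs gave 241, 241 and 281 female-higher and 4, 4 and 6 male-higher genes. The X minus autosome difference stayed between 0.67 and 0.75 in all settings but one, being 0.77 without the cells whose X share goes against their label. The X share difference of 3.91 points was 3.99 with at least 4 germ genes, 4.15 in germ-rich cells, 3.97 with at least 2 of zpg, CG17650 and CG14545, 4.12 with CycB under 2 and 3.79 with CycB under 10 per 10000, 4.01 without likely doublets, 4.08 after thinning, and 4.02 and 4.17 with the added limits. For early-higher genes the X minus autosome difference of 0.26 became 0.67 at a 2-fold limit and 0.59 in germ-rich cells. CG5399 reversed to a log2 ratio of -0.13 in germ-rich cells and -0.12 with both limits, nerfin-1 to -0.38 without somatic-rich cells and -0.12 with both limits, and Socs36E to -0.066 with both limits; the cause was not tested. Of 123 named or listed genes, 92 kept their sign under every alternative. No paired analysis was possible because each sex has 1 library.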
